A study of Danio rerio with 9 samples.

Results

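The transcriptomes of tetraploid zebrafish embryos were set against those of diploid embryos 3 hours after fertilization. The comparison used the 3 libraries labelled tetraploid and the 3 labelled diploid (the control), and covered every locus with a mean FPKM of at least 1 over these 6 libraries. FPKM counts sequenced fragments per kilobase of transcript, relative to the depth of the library. This rule kept 5875 of the 30702 listed loci. Both groups came from crosses of a TJH female with a Tu male, the genotype given for every embryo of the study. The labels refer the making of tetraploid embryos to a published protocol, and its steps are not described there. Nothing in the labels says how many embryos were pooled, or whether replicates are separate clutches. The p-values therefore rest on the spread among these libraries, and that spread may be technical. The 3 haploid libraries of the study entered only the scaling and the estimate of the spread, and their levels are given for a few genes.

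A tetraploid embryo carries a doubled chromosome set in the same volume of egg cytoplasm. Early zebrafish embryos live on RNA and protein loaded into the egg by the mother, and their own genome is switched on at the midblastula transition, near the stage sampled. In fish and frog embryos the timing of that transition has been tied to the ratio of DNA to cytoplasm. Checkpoint kinase 1, replication factors and free histones are among the proteins linked to this timing, and maternal RNA is cleared at the same time.

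The stage was checked against marker genes, as far as these were measured. Of 9 late tissue markers, 8 were listed at 0 in all 6 libraries. However, 7 of the 9 lie among loci treated here as unmeasured and say nothing about tissues. The muscle regulator myod1 and the neuronal gene elavl3 are among these 7. Of the measured late markers, pax2a was at 0 in all 6 libraries and sox10 was at 0.166 or less. The germ plasm genes buc, the Bucky ball organizer of the germ plasm, and ddx4, the Vasa helicase, were abundant. The summed FPKM of 11 germ plasm markers, of which 7 are likewise unmeasured, was 506, 575 and 447 in tetraploid libraries, against 549, 508 and 528 in diploid ones. Nothing in the tables measures ploidy itself. The tables number their loci in 2 passes along the genome. Of 15165 loci of the first pass, 38.5% reached the mean of 1, and of 15537 loci of the second pass, 0.26% did. Genes of the second pass below that mean, among them vox, pou5f3, ccnb1 and krt4, were therefore treated as unmeasured.

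Tetraploid replicate 3 stood apart from the other 5 libraries. Its correlation with each of them, across loci on the log2(FPKM + 1) scale, was 0.92 to 0.927, against 0.966 to 0.978 among the other 10 pairs. A total of 753 loci deviated more than 2-fold from the mean of the other libraries, 191 upward and 562 downward, against 92 to 147 loci in each other library. It also had the fewest loci at an FPKM of at least 1, 5395 against 5820 to 5921, and the smallest depth implied by the Cufflinks intervals, 2690000 fragments against 3360000 to 4200000. Results are therefore given with and without this library. All levels below are FPKM after scaling each library by a median-of-ratios factor, 0.7935 for this library and 1.0336 to 1.0618 for the other 5.

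Most of the measured transcriptome was close between the groups in relative level. FPKM are relative to library depth and were scaled between libraries, so a change in total RNA per embryo would not be seen. The tetraploid minus diploid difference lay within 1.5-fold at 92.73% of loci and within 2-fold at 98.42%, and without tetraploid replicate 3 at 95.05% and 98.84%. Differences are given throughout as log2(FPKM + 1), a pseudocount of 1 that understates the change of low genes. They were positive at 2967 loci and negative at 2908. Past 2-fold, 22 loci were higher and 71 lower in tetraploid embryos, and without replicate 3 these counts were 31 and 37. With limma and Benjamini-Hochberg adjustment at 0.05, 1 locus of 5875 was called, 0.017%, with and without that library. At an unadjusted p under 0.05 there were 284 loci, 4.83% of those tested, and 273 without replicate 3.

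**Figure D1:**
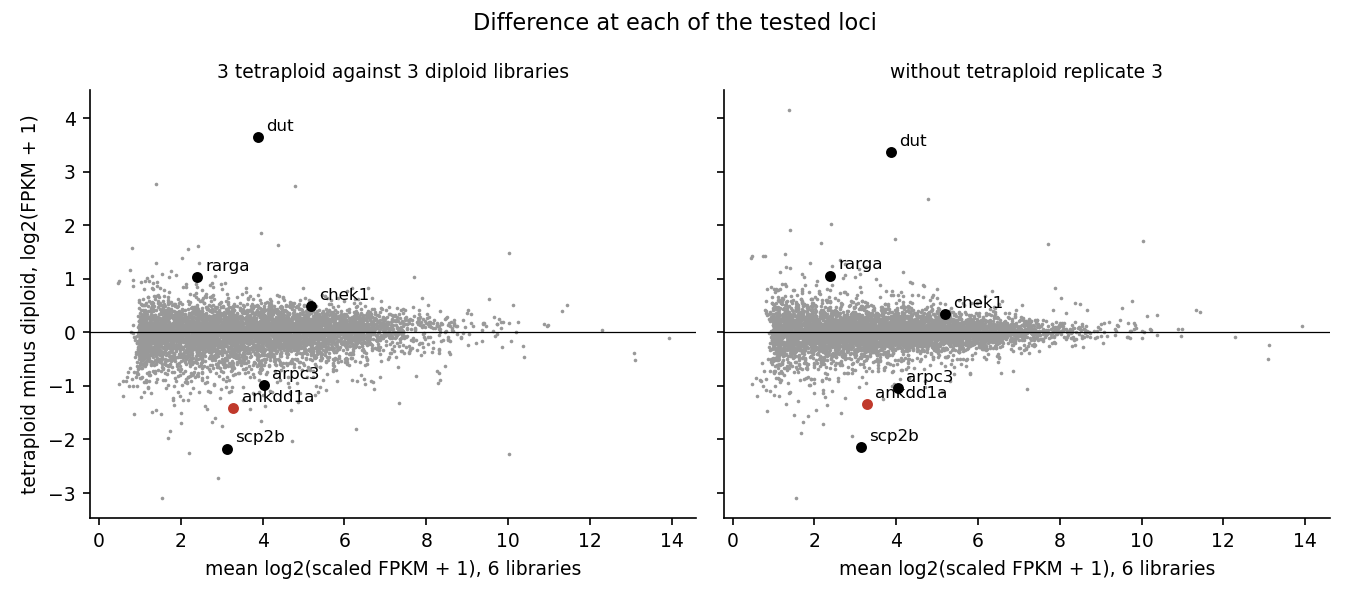
Tetraploid minus diploid difference at each of the 5875 tested loci, log2(FPKM + 1), against the mean level in the 6 libraries on the same scale, with all libraries (left) and without tetraploid replicate 3 (right). The red point is ankdd1a, the 1 locus called by limma, and black points are loci named in the text; the cloud is narrower on the right, where the median absolute difference is 0.142 against 0.184 on the left.

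A second description counted loci whose groups did not overlap. At 338 loci (5.75%) every tetraploid value lay above every diploid value, and at 337 (5.74%) below. Without tetraploid replicate 3, with fewer values to separate, the counts were 673 (11.5%) and 702 (11.9%). The 675 loci of the full comparison make up 49.1% of the 1375 without that library. A locus apart in the full comparison must stay apart when a tetraploid library is dropped. This share is thus fixed by the counts and supports nothing. Scaling matters for the direction. With FPKM as deposited the median difference over all loci shifted by -0.116, 33.3% of differences were positive against 50.5% after scaling, and non-overlapping loci numbered 176 higher and 494 lower. Differences below are relative to the scaled median of 0.003.

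The called locus was ankdd1a, which encodes a protein with ankyrin repeats and a death domain, on chromosome 7 from 13329535 to 13452776 as the files give it (build GRCz10 in the submitters' processing notes). Its level was 5.23, 5.36 and 4.34 in the 3 tetraploid libraries, against 14.3, 15.1 and 15.4 in the diploid libraries. Every tetraploid value was thus below every diploid value, tetraploid replicate 3 included. ankdd1a fell in tetraploid embryos, with a mean of 4.98 ± 0.553 against 14.9 ± 0.543 in diploid embryos (SD, n = 3 each) and a log2 difference of -1.42 (SE 0.154, limma adjusted p = 0.0279). Without tetraploid replicate 3 the difference was -1.34 (SE 0.134, limma adjusted p = 0.0402). The 3 haploid libraries had 15.2, 17.9 and 18.4, also above the tetraploid range. In the authors' deposited pooled values the gene stood at 18.7 FPKM in tetraploid and 35.5 FPKM in diploid embryos. A further deposited set of pooled values gave 18.8 and 32.8 FPKM. Both pooled gaps have the same direction but are smaller in proportion than that between the single libraries, and the reason was not tested. The call was lost in 10 of 17 alternative settings, among them a fit of the 6 compared libraries alone (limma adjusted p = 0.304), FPKM as deposited (0.103), and each fit without 1 library other than tetraploid replicate 3 (0.112 to 0.321).

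No other locus passed. The limma adjusted p was at least 0.698 with all libraries and at least 0.317 without tetraploid replicate 3 for every locus other than ankdd1a, which covers all genes named below. Among non-overlapping loci with the largest positive differences, rarga, a nuclear receptor for retinoic acid, had 5.74, 7.72 and 6.26 in tetraploid libraries against 2.72, 2.54 and 2.77 in diploid ones (log2 1.04, SE 0.182, limma adjusted p = 0.698). bloc1s2, a subunit of a lysosome-related organelle complex, had 10.8, 7.98 and 6.68 in tetraploid libraries against 3.63, 3.87 and 4.22 in diploid ones (log2 0.93, SE 0.207). Both differences were at least as large without tetraploid replicate 3, at 1.06 (SE 0.189) and 1.07 (SE 0.194), each with a limma adjusted p of 0.5. mark4a, named for a microtubule affinity-regulating kinase, had 2.79, 4.71 and 4.85 in tetraploid libraries against 0.933, 1.71 and 1.22 in diploid ones. itgb6, an integrin beta subunit, had 10.4, 11.4 and 8.03 in tetraploid libraries against 6.21, 7.09 and 2.4 in diploid ones. sycp1, a protein of the meiotic synaptonemal complex, had 2.23, 3.92 and 5.24 in tetraploid libraries against 1.58, 1.53 and 0.799 in diploid ones. These are low to moderate levels, and in 3 of the 5 genes tetraploid replicate 3 was not the highest tetraploid library. Haploid replicates 1, 2 and 3 had 3.14, 8.26 and 1.22 for mark4a and 8.51, 0.98 and 2.65 for sycp1, reaching above the tetraploid range in each. They had 4.8, 3.86 and 3.65 for rarga and 6.49, 5.05 and 6.03 for itgb6, below the tetraploid range. For bloc1s2 they had 5.28, 6.94 and 5.13, reaching into it. The other 5 of the largest differences were those of il17a/f2, GIGYF1 (1 of many), TSHZ2, tomm40l and SFT2D2 (1 of many), between 0.84 and 0.91. That of il17a/f2 rested largely on tetraploid replicate 3, at 12.1 against 4.63 and 3.72 in the other tetraploid libraries, and was 0.46 without it.

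On the lower side scp2b, named for a sterol carrier protein, had 9.97, 0.623 and 2.95 in tetraploid libraries against 17.6, 16.4 and 18.8 in diploid ones. The diploid libraries lay close together and the tetraploid ones were widely spread, and the log2 difference of -2.17 had an SE of 0.965. gata2b, a GATA transcription factor known for its part in blood formation, had 1.9, 0.0359 and 0.392 in tetraploid libraries against 4.12, 3.33 and 10.6 in diploid ones (log2 -1.98, SE 0.581). tceanc2, named for similarity to an elongation factor, had 29.5, 13.7 and 7.55 in tetraploid libraries against 51.2, 30.8 and 46.3 in diploid ones. cxcr4a, a receptor for the chemokine Cxcl12, had 1.77, 2.44 and 0.895 in tetraploid libraries against 6.5, 3.29 and 5.62 in diploid ones (log2 -1.19, SE 0.343). In tceanc2 the gap was narrow, with tetraploid replicate 1 just below diploid replicate 2. Haploid replicates 1, 2 and 3 had 35.8, 1.16 and 18.6 for scp2b and 0.365, 0.461 and 3.89 for gata2b. They had 42.1, 9.83 and 37.5 for tceanc2 and 2.22, 5.08 and 2.11 for cxcr4a. Each of these 4 genes thus had haploid values in the tetraploid range and in the diploid range. The differences of these 4 genes without tetraploid replicate 3 were -2.14, -1.87, -1.01 and -0.95. By contrast ppifb, a mitochondrial cyclophilin, and cdc42ep1b, an effector of Cdc42, had their lowest values in tetraploid replicate 3, at 0.101 and 0.266. Their differences moved to -0.53 and -0.76 without it, against -1.43 and -1.6 with all libraries. ccbl2, gadd45ba and L3HYPDH complete the list, with differences of -1.84, -1.49 and -1.26. gata2b and gadd45ba had tetraploid means of 0.775 and 0.492, so they reached the filter of 1 FPKM only through the diploid libraries. ccbl2, with a tetraploid mean of 0.993, did nearly so. The place of these genes among the largest differences is thus a description that supports nothing.

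Leaving out tetraploid replicate 3 brought further loci into view. mb, named for myoglobin, had 5.45 and 5.21 in tetraploid replicates 1 and 2, against 0.9, 0.562 and 0.609 in diploid libraries, and 0.743 in tetraploid replicate 3 (log2 1.91, SE 0.446, without that library). mettl10 had 9.25 and 29.9 in those tetraploid libraries and was listed at 0 in tetraploid replicate 3 and all 3 diploid libraries. The mettl10 locus spans 0.12 kb, and a listed 0 can be a failed estimate, so no fold is given. mettl10 and mb, whose diploid mean was 0.691, reached the filter of 1 FPKM only through tetraploid libraries. Among loci whose groups did not overlap without that library, stra13, pudp and fkbp3 had the next largest positive differences, at 1.27, 1.23 and 1.18. Among the negative ones not yet named, arpc3, a subunit of the Arp2/3 complex that nucleates branched actin, had 11.5, 9.01 and 11.7 in the 3 tetraploid libraries against 22.3, 20.3 and 23.6 in diploid ones. tspan13a, a tetraspanin, had 2.13, 2.39 and 1.97 in tetraploid libraries against 3.58, 7.53 and 7.37 in diploid ones. In these 2 genes tetraploid replicate 3 sat with its group, and the differences were -0.98 (SE 0.203) and -1.13 (SE 0.251), against -1.04 and -1.08 without it. fkbp6, anxa11b and aldh1l1 had differences of -1.56, -1.51 and -1.0 without tetraploid replicate 3. In anxa11b, an annexin, that library had 9.21, within the diploid range of 6.71 to 9.24. The other tetraploid libraries had 1.35 and 2.88. The listed spans of anxa11b and ppifb overlap on chromosome 12, and ppifb was at 0.101 in tetraploid replicate 3. How reads were assigned between these genes was not tested, so they are not separate observations.

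Outside the rule for named genes, and chosen after their values were seen, 2 further genes whose groups did not overlap were cd82b, a tetraspanin, and pycr1b, an enzyme of proline synthesis. cd82b had 45.8, 56.4 and 39.1 in tetraploid libraries against 70.4, 65.0 and 70.9 in diploid ones. pycr1b had 37.7, 52.4 and 32.7 in tetraploid libraries against 61.5, 75.5 and 93.6 in diploid ones. The log2 differences were -0.55 (SE 0.147) and -0.9 (SE 0.244). Without tetraploid replicate 3 they were -0.43 (SE 0.113) and -0.76 (SE 0.253).

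**Figure D2:**
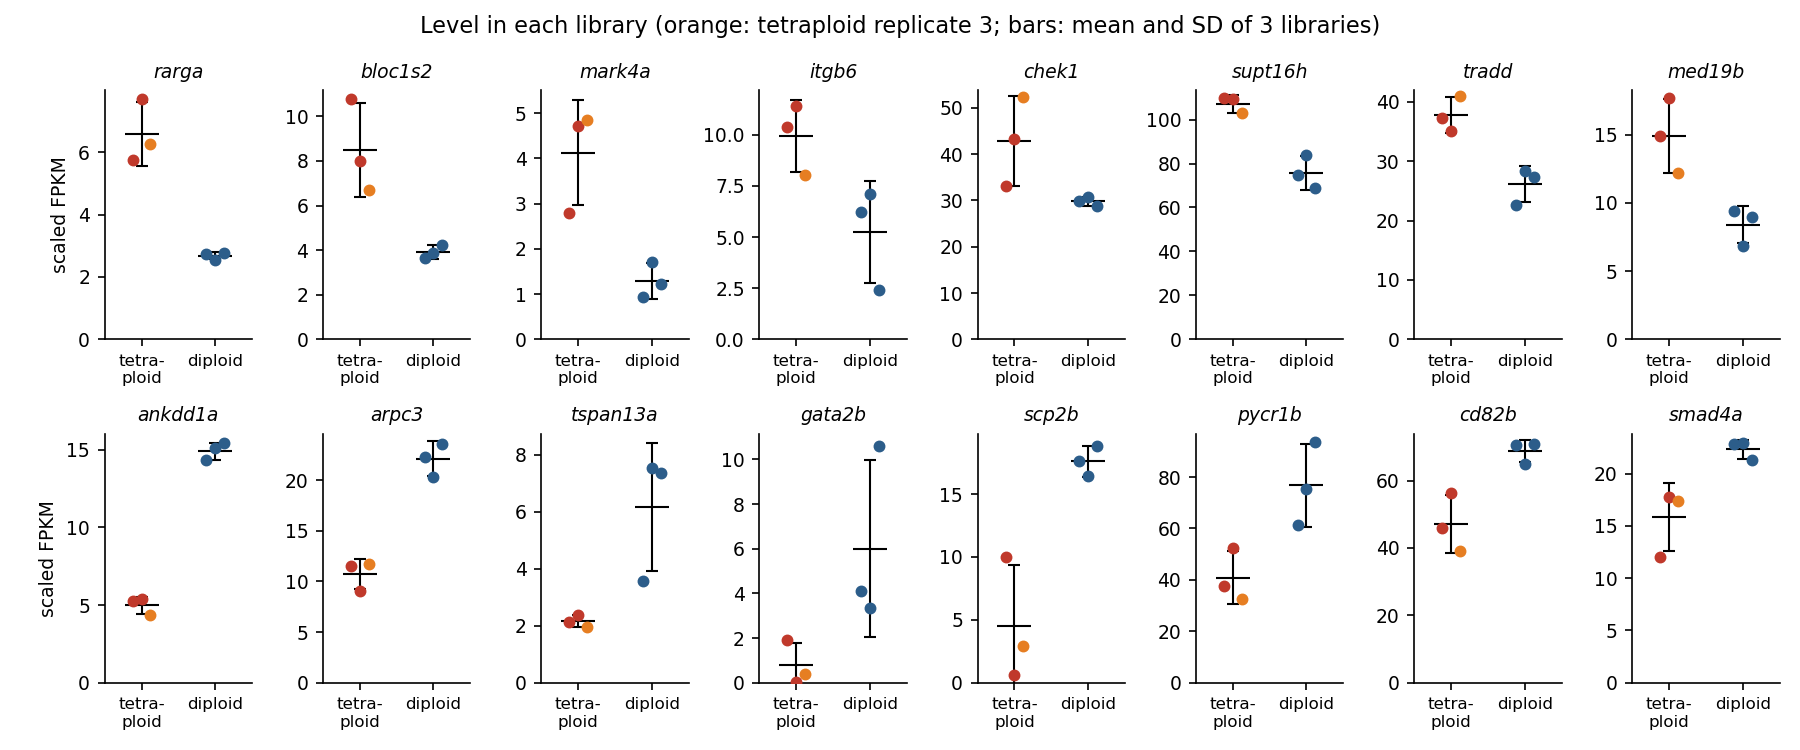
Scaled FPKM of 16 named loci in each tetraploid (left, with replicate 3 in orange) and diploid (right) library, with the mean and SD of 3 libraries; each vertical axis starts at 0. In all 16 the groups do not overlap, and of them only ankdd1a, with 4.34 to 5.36 in tetraploid and 14.3 to 15.4 in diploid libraries, was called by limma.

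Gene groups were then described by their members' differences. Of 23 lists, 19 had at least 5 tested members, and 0 members of any list were called, against 0.017% of all loci. The median over all 5875 loci was 0.003, and 11.5% of loci had groups that did not overlap. With all libraries 14 of the 19 lists had a median above 0. With FPKM as deposited, where the median of all loci was -0.113, 4 of these 14 stayed above 0 (replication, histones, genome activation regulators and RNA clearance) and 10 lay below 0.

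Genes of DNA replication and its checkpoint had the highest median of these 19 lists, 0.169 over 33 tested members, and 0.142 without tetraploid replicate 3. With FPKM as deposited the median was 0.032, which is 0.145 above that of all loci. Differences were positive in 27 members and negative in 6, and the groups did not overlap in 7, all with higher tetraploid values (21.2%, against 11.5% of all loci). chek1, the checkpoint kinase that halts the cell cycle when replication is incomplete, had 33.1, 43.3 and 52.4 in tetraploid libraries against 29.8, 30.8 and 28.7 in diploid ones. tk1, thymidine kinase, had 20.2, 22.3 and 18.3 in tetraploid libraries against 12.8, 13.3 and 16.2 in diploid ones. The log2 difference was 0.49 (SE 0.172) in chek1 and 0.5 (SE 0.187) in tk1. Tetraploid replicate 3 was the highest library for chek1, whose difference was 0.34 without it, and the lowest tetraploid one for tk1, whose difference was 0.56 without it. mcm5, a subunit of the replicative helicase, had 81.7, 66.3 and 136 in tetraploid libraries against 64.7, 63.8 and 65.6 in diploid ones. pola1, the catalytic subunit of DNA polymerase alpha, had 17.0, 17.9 and 30.1 in tetraploid libraries against 17.0, 14.0 and 14.5 in diploid ones. In both genes tetraploid replicate 3 was the highest library, and the differences were 0.48 and 0.45 with it and 0.18 and 0.19 without it. For pola1 the groups were barely apart, since tetraploid replicate 1 was level with diploid replicate 1 to 3 digits. fen1, the flap endonuclease, tipin, a replication fork protein, and rif1, a regulator of origin timing, completed the non-overlapping members, with differences of 0.28, 0.37 and 0.24. Each was highest in tetraploid replicate 3, and without it their differences were 0.22, 0.17 and 0.14.

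A pair of replication genes held extreme values. dut, the enzyme that removes dUTP, had 27.5, 63.6 and 75.6 in tetraploid libraries and 71.2 in diploid replicate 1, and was listed at 0 in diploid replicates 2 and 3. Its listed locus spans 0.101 kb, and a listed 0 can be a failed estimate. Haploid replicates 1, 2 and 3 had 26.6, 52.8 and 52.4. Without diploid replicate 1, dut was the locus called by limma, a call that rests on diploid values listed at 0. dut is counted among the positive members of the list. pold2, a subunit of DNA polymerase delta, had 27.0, 25.9 and 1.57 in tetraploid libraries against 24.0, 30.4 and 23.0 in diploid ones. Its low value in tetraploid replicate 3 set the difference of -1.09, which was 0.04 without that library.

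Histones and histone chaperones had a median of 0.164 over 11 tested members, and 0.193 without tetraploid replicate 3. With FPKM as deposited it was 0.029. In 4 members the groups did not overlap, all with higher tetraploid values (36.4%, against 11.5% of all loci). supt16h, the large subunit of the FACT chaperone that moves nucleosomes ahead of polymerases, had 109.9, 109.6 and 103 in tetraploid libraries against 74.6, 83.9 and 68.7 in diploid ones (log2 0.5, SE 0.137). hira, a chaperone for the replication-independent histone H3.3, had 24.1, 22.3 and 27.4 in tetraploid libraries against 17.3, 18.4 and 17.4 in diploid ones (log2 0.45, SE 0.156). The tetraploid values of both genes were close to each other, and the differences without replicate 3 were 0.53 and 0.37. npat, a coactivator of histone genes, had 46.3, 40.1 and 48.4 in tetraploid libraries against 37.2, 37.4 and 34.6 in diploid ones. slbp, which binds the stem-loop of histone messages, had 167, 169.8 and 275 in tetraploid libraries against 148, 142 and 149 in diploid ones. Here too tetraploid replicate 3 was the highest, and the slbp difference of 0.44 was 0.2 without it. Most histone genes could not be read, since 26 of the 39 listed members lie in the second numbering pass.

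Regulators of genome activation had a median of 0.161 over 17 tested members, with 13 positive, and 0.08 without tetraploid replicate 3. With FPKM as deposited it was 0.023. The groups did not overlap in 17.6% of members, against 11.5% of all loci. setdb1a, a histone H3 lysine methyltransferase, had 36.7, 32.8 and 54.4 in tetraploid libraries against 27.4, 24.8 and 23.9 in diploid ones (log2 0.65, SE 0.188, and 0.44, SE 0.119, without replicate 3). hdac1, a histone deacetylase, had 327, 349.7 and 476 in tetraploid libraries against 322, 324 and 314 in diploid ones. nanog, a maternal activator of the zygotic genome, had 922, 923 and 1171 in tetraploid libraries against 830.4, 847 and 938 in diploid ones. setdb1a separated the groups in every tetraploid library, while nanog overlapped and had a difference of 0.2 (SE 0.137). The hdac1 groups were narrowly apart, with a difference of 0.24. Tetraploid replicate 3 was the highest library for hdac1 and nanog, and without it both differences were 0.08. eed, a Polycomb subunit, had 57.1, 60.5 and 19.2 in tetraploid libraries against 57.6, 85.5 and 58.6 in diploid ones, and its difference was -0.69 with replicate 3 and -0.17 without it.

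Genes of maternal RNA clearance and translational control had a median of 0.163 over 29 tested members with all libraries and 0.018 without tetraploid replicate 3. parn, a poly(A)-specific ribonuclease, had 261, 280 and 228 in tetraploid libraries against 204, 199.8 and 201 in diploid ones (log2 0.34, SE 0.12). Without replicate 3 the parn difference was 0.42 (SE 0.091). btg4, an adaptor that brings deadenylases to maternal messages, had 276, 418 and 259.6 in tetraploid libraries against 266, 197 and 199.6 in diploid ones. In parn the groups were apart, while in btg4 they overlapped through tetraploid replicate 3 and diploid replicate 1. tnrc6b, a GW182 protein of microRNA silencing, and dgcr8, of microRNA processing, also had higher values in every tetraploid library, with differences of 0.3 and 0.35. Without replicate 3 the tnrc6b difference was 0.28, while that of dgcr8 was 0.14. dcp1a, a decapping factor, was the 1 member lower in every tetraploid library, at 2.29, 2.36 and 2.8 against 3.41, 3.21 and 3.58 in diploid ones. The groups were apart in 13.8% of members, against 11.5% of all loci.

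The general transcription machinery was the largest list, with 58 tested members of the Mediator, the RNA polymerases and their factors. Its median was 0.063, and 0.103 without tetraploid replicate 3. With FPKM as deposited it was -0.054, which is 0.059 above that of all loci. In 9 members every tetraploid value lay above the diploid values, and in 1, gtf2f2a, every one lay below (17.2% together, against 11.5% of all loci). med19b, a Mediator subunit, had 14.9, 17.7 and 12.2 in tetraploid libraries against 9.37, 6.84 and 8.99 in diploid ones (log2 0.76, SE 0.204, and 0.88 without replicate 3). mnat1, of the kinase module of TFIIH, had 45.5, 42.8 and 42.4 in tetraploid libraries against 29.8, 41.9 and 31.8 in diploid ones. polr3k, a subunit of RNA polymerase III, had 24.2, 26.7 and 39.2 in tetraploid libraries against 17.7, 23.9 and 18.9 in diploid ones. The gap was wide for med19b and narrow for the other genes, where diploid replicate 2 came within 1 FPKM of the lowest tetraploid library. Splicing factors had a median of 0.078 over 50 members, 0.062 without tetraploid replicate 3 and -0.052 with FPKM as deposited. Their groups were apart in 8.0% of members, against 11.5% of all loci. snrpf, a core protein of the spliceosomal small nuclear ribonucleoproteins, had 16.8, 23.2 and 16.1 in tetraploid libraries against 15.0, 14.1 and 15.5 in diploid ones.

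**Figure D3:**
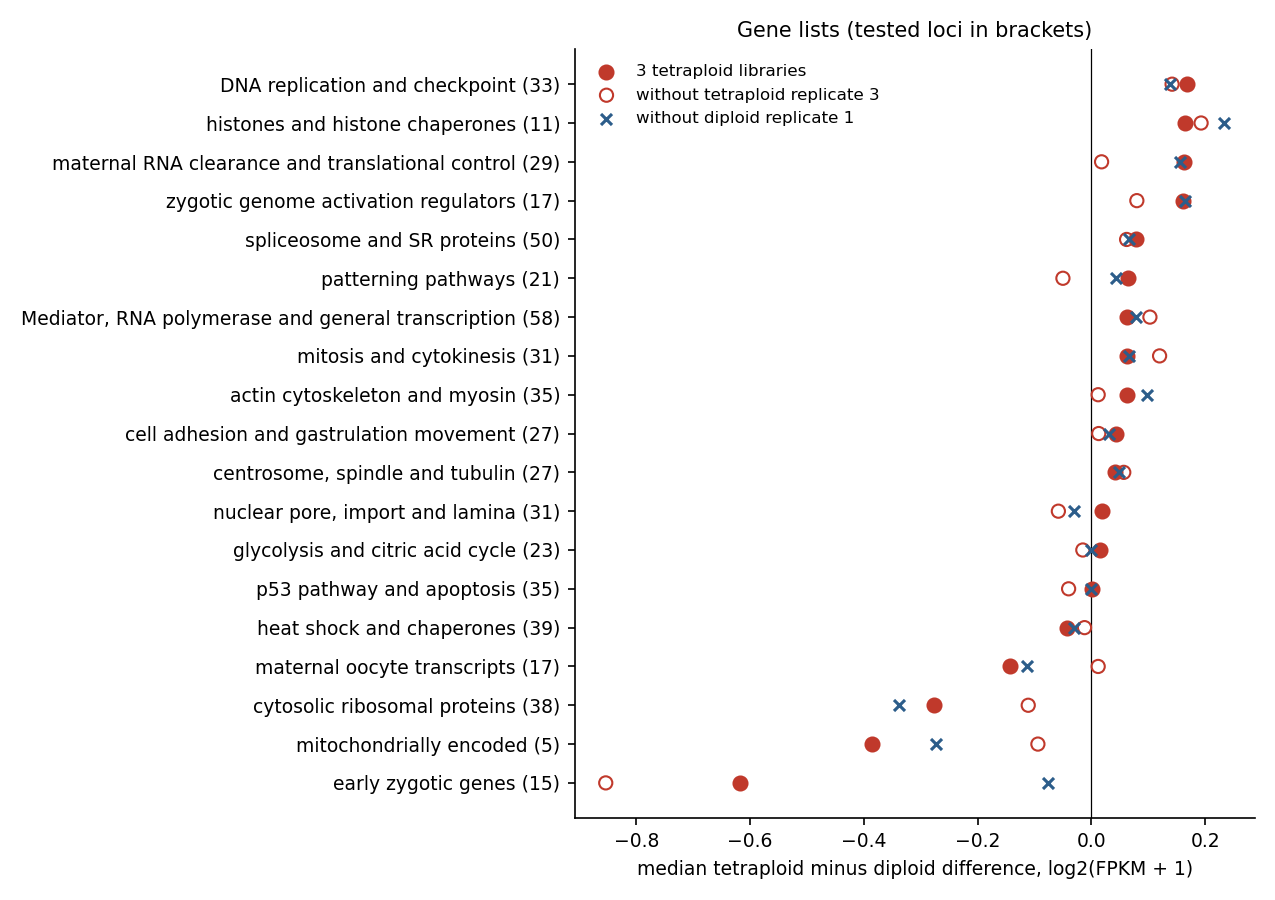
Median tetraploid minus diploid difference, log2(FPKM + 1), of each list with at least 5 tested members, with all libraries (filled circles), without tetraploid replicate 3 (open circles) and without diploid replicate 1 (crosses). With all libraries, replication genes (0.169) are at the top and early zygotic genes (-0.618) at the bottom. Without tetraploid replicate 3 the histone median (0.193) is above that of replication (0.142). The early zygotic median moves to -0.076 without diploid replicate 1. With FPKM as deposited, 10 of the 14 medians that were right of 0 with all libraries lay below 0.

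Mitosis and cytokinesis genes had a median of 0.063 over 31 members, 0.12 without tetraploid replicate 3 and -0.064 with FPKM as deposited. nek2, a centrosomal kinase, had 145, 119 and 193 in tetraploid libraries against 105, 116 and 114 in diploid ones. kif2c, a kinesin that shortens microtubules, had 28.7, 35.7 and 26.6 in tetraploid libraries against 22.4, 24.8 and 26.2 in diploid ones. The groups were apart in these genes and in ncaph, a condensin subunit, at differences of 0.42, 0.29 and 0.16. Without tetraploid replicate 3 their differences were 0.24, 0.38 and 0.14. The genes apart make up 9.68% of members, against 11.5% of all loci. ccnb2, the abundant mitotic cyclin, had 1346, 1457 and 911 in tetraploid libraries against 1296, 1543 and 1491 in diploid ones, and overlapped. Centrosome, spindle and tubulin genes had a median of 0.041 over 27 members, and 1 of them was apart (3.7%, against 11.5% of all loci). This was the dynactin subunit dctn4, at 10, 7.86 and 8.38 in tetraploid libraries against 10.5, 10.7 and 11.3 in diploid ones.

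Among nuclear pore and import genes the groups were apart in 12.9% of members, near the 11.5% of all loci. In 1 member the tetraploid values were higher, and in 3 they were lower. kpnb1, importin beta, had 54.6, 43.6 and 65.1 in tetraploid libraries against 37.7, 39.8 and 41.2 in diploid ones (log2 0.43, SE 0.164, and 0.3 without replicate 3). The pore components nup188 and nup210 had differences of -0.43 and -0.47, and sec13 of -0.3. nup188 had 15.9, 16.8 and 9.82 in tetraploid libraries against 18.1, 19.9 and 19.0 in diploid ones. All 3 lower genes were lowest in tetraploid replicate 3, and their differences without it were -0.2, -0.22 and -0.08. The list median over 31 members was 0.019, and it was -0.058 without tetraploid replicate 3, -0.117 with FPKM as deposited and -0.026 with quantile normalisation.

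Actin and adhesion genes, which drive the later cell movements of gastrulation, had medians of 0.062 over 35 members and 0.044 over 27 members (-0.066 and -0.086 with FPKM as deposited). Subunits of the Arp2/3 complex had differences of both signs. arpc3, described above, was lower in every tetraploid library. actr3, the Arp3 subunit, had 46.5, 56.9 and 16.9 in tetraploid libraries against 61.3, 59.9 and 64.0 in diploid ones, and arpc1a had 118, 107 and 186 in tetraploid libraries against 104, 105 and 97.1 in diploid ones. Tetraploid replicate 3 held the extreme value in both, and their differences of -0.78 and 0.38 were -0.26 and 0.13 without it. wasla, a WASP family activator of the complex, had 36.3, 33.1 and 36.8 in tetraploid libraries against 24.9, 30.1 and 25.9 in diploid ones. pfn1, profilin, had 101, 86.9 and 73.9 in tetraploid libraries against 117, 221 and 143 in diploid ones. Of adhesion genes, sphk2, a sphingosine kinase, was higher in every tetraploid library, with a difference of 0.64 (0.35 without replicate 3). stat3, a transcription factor, was lower in every one, with a difference of -0.22. The groups were apart in 14.3% of actin and 11.1% of adhesion members, against 11.5% of all loci.

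Patterning pathway genes had a median of 0.064 over 21 members and -0.05 without tetraploid replicate 3. Beside rarga, a further retinoic acid receptor, raraa, had 2.11, 2.3 and 1.64 in tetraploid libraries against 0.958, 1.0 and 1.44 in diploid ones (log2 0.5, SE 0.245). sybu, syntabulin, known for moving maternal dorsal determinants along microtubules in the zebrafish egg, had 8.8, 11.0 and 10.5 in tetraploid libraries against 6.44, 8.01 and 7.41 in diploid ones. smad4a, the shared mediator of TGF-beta and BMP signals, had 12, 17.8 and 17.4 in tetraploid libraries against 22.8, 22.9 and 21.3 in diploid ones (log2 -0.5, SE 0.176, and -0.57 without replicate 3). The receptor genes and sybu were higher and smad4a was lower in all 3 tetraploid libraries. These make up 19.0% of the members, against 11.5% of all loci.

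Heat shock and chaperone genes gave a median of -0.042 over 39 members, with 15 positive and 24 negative. The inducible genes hsp70l, below the level filter, and hsp70.3 were low in both groups. hsp70.3 (chosen after its values were seen) had 1.11, 1.26 and 1.6 in tetraploid libraries against 0.865, 0.877 and 1.23 in diploid ones, overlapping. hspe1, the mitochondrial co-chaperonin, had 19.0, 16.6 and 17.7 in tetraploid libraries against 12.8, 11.3 and 8.21 in diploid ones (log2 0.69, SE 0.272, and as large without replicate 3). dnajb6a, a co-chaperone, had 79.6, 80.9 and 84.4 in tetraploid libraries against 66.9, 74.1 and 66.1 in diploid ones. hsf1, the main heat shock transcription factor, had 8.97, 12.2 and 11.5 in tetraploid libraries against 12.7, 13.5 and 15.0 in diploid ones. The groups were apart in these last 3 genes, with hsf1 the lower one (7.69% of members, against 11.5% of all loci). The abundant chaperone hsp90ab1 was higher in tetraploid replicate 3 alone, at 529 against 290.5 and 293 in the other tetraploid libraries and 313, 331 and 308 in diploid ones.

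p53 pathway and apoptosis genes were centred near 0, with a median of 0.001 over 35 members. tradd, an adaptor of the TNF receptor with a death domain, had 37.2, 35.1 and 41.0 in tetraploid libraries against 22.7, 28.3 and 27.4 in diploid ones (log2 0.52, SE 0.149, and 0.46 without replicate 3). gadd45ba, a stress-inducible gene, had 0.785, 0.507 and 0.183 in tetraploid libraries against 4.88, 1.12 and 4.63 in diploid ones. mych, a myc family gene, had 3.1, 3.02 and 2.12 in tetraploid libraries against 9.1, 3.25 and 5.04 in diploid ones. Both lower genes were at low levels and came nearest to the tetraploid range in diploid replicate 2, and gadd45ba reached the filter only through diploid libraries. bnip3lb, a mitophagy receptor gene, had 25.8, 26.6 and 26.1 in tetraploid libraries against 28.9, 31.6 and 28.0 in diploid ones. The groups did not overlap in these genes, which is 11.4% of members, against 11.5% of all loci.

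Genes of energy metabolism and of the ribosome came next. Glycolysis and citric acid cycle genes had a median of 0.015 over 23 members, and the groups were apart in 3 (13.0%, near the 11.5% of all loci): gpia, glucose phosphate isomerase, with a difference of -0.46 (-0.29 without replicate 3), aldoaa, an aldolase, with -0.2, and sucla2, a succinyl-CoA synthetase subunit, with -0.21. gpia had 11.5, 11.5 and 7.67 in tetraploid libraries against 13.0, 13.6 and 16.4 in diploid ones. The 5 mitochondrially encoded genes tested had a median of -0.386, which was -0.094 without tetraploid replicate 3, -0.081 with quantile normalisation and -0.057 with library quality weights. Of them mt-co1, a cytochrome oxidase subunit, was lower in every tetraploid library, at 7677, 6499.8 and 8771 against 11599, 8781 and 9594 in diploid ones (log2 -0.39, SE 0.189). The highest tetraploid value lay close to the lowest diploid one. The groups were apart in this gene alone, 20.0% of the 5 tested, against 11.5% of all loci.

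Cytosolic ribosomal protein genes had a median of -0.277 over 38 tested members, with 30 negative. The list score, the median deviation of its members from the mean of the 6 libraries, was -0.079, 0.056 and -0.28 in tetraploid libraries, against -0.046, 0.713 and -0.171 in diploid ones. Diploid replicate 2 was thus far above the rest, and without it the median was 0.015. Without tetraploid replicate 3 it was -0.111. rpl10a had 69.6, 95.4 and 41.3 in tetraploid libraries against 103, 201 and 83.9 in diploid ones, and rps29 had 238, 237 and 74.2 in tetraploid libraries against 232, 419 and 233 in diploid ones. Both overlapped, with diploid replicate 2 the highest and tetraploid replicate 3 the lowest. The groups were apart in 3 members, rpl13 and rps2 lower and rpl37 higher in tetraploid libraries, which is 7.89% against 11.5% of all loci.

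Transcripts known from the oocyte and egg had a median of -0.143 over 17 members, and 0.012 without tetraploid replicate 3. The egg coat genes zp3a.2, zp3a.1, zp2.2 and zp2.1, which lie as a zp3a pair and a zp2 pair at separate places on chromosome 20, were lower in every tetraploid library, with differences of -0.45, -0.27, -0.38 and -0.84. The genes of a pair are related copies whose reads may be shared, so they are not separate observations. zp3a.2 had 51.4, 41.4 and 29.1 in tetraploid libraries against 51.6, 54.5 and 57.7 in diploid ones. All 4 were lowest in tetraploid replicate 3, and without it the differences were -0.24, -0.17, -0.31 and -0.22. lhx8a, an oocyte transcription factor, was higher in every tetraploid library, at 14.1, 16.7 and 15.6 against 11.0, 11.4 and 12.4 in diploid ones. Counting each copy, the groups were apart in 29.4% of members, against 11.5% of all loci.

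Early zygotic genes, which the embryo switches on before most others, had the lowest median among lists with at least 5 tested members, -0.618 over 15 of them, with 13 negative. Of the 49 listed members, 24 lie in the second numbering pass. Without diploid replicate 1, 4 of the 15 (grhl3, klf2b, ndr1 and wnt11) average below the filter of 1 FPKM, so they were tested only through a library where they are high, and the count and median of the list are descriptions that support nothing. With no filter, which admits unmeasured loci, the median was -0.352. klf17, a Krüppel-like factor of the early blastula, had 16.8, 9.4 and 21.5 in tetraploid libraries against 59.1, 10.2 and 21.3 in diploid ones. irx7, a homeobox gene, had 7.22, 3.08 and 6.4 in tetraploid libraries against 39.4, 3.33 and 8.2 in diploid ones. Diploid replicate 1 was the highest of the 6 libraries for both genes, and the other diploid libraries lay near the tetraploid range. Haploid replicates 1, 2 and 3 had 18.2, 0.954 and 1.86 for klf17 and 10, 0.175 and 0.546 for irx7. For both genes replicate 2 was the lowest library of each ploidy, and replicate 1 was the highest haploid one. Whether replicates of equal number share a clutch or day was not tested. her5, a Hes family repressor chosen after its values were seen, had 2.85, 1.05 and 4.41 in tetraploid libraries against 20.0, 1.01 and 4.58 in diploid ones. The list score was -0.27, -0.517 and -0.213 in tetraploid libraries, against 1.568, -0.457 and 0.101 in diploid ones. Without diploid replicate 1 the median was -0.076, with 6 members positive and 9 negative, and without tetraploid replicate 3 it was -0.854. In 1 member, cxcr4a, the groups did not overlap (6.67%, against 11.5% of all loci).

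The same diploid library stood out for the few measured markers of the enveloping layer and the yolk syncytial layer. The summed FPKM of 7 listed enveloping layer markers was 1.14, 0.285 and 1.55 in tetraploid libraries, against 13.1, 0.441 and 1.26 in diploid ones. This sum is almost wholly grhl3, a Grainyhead factor, because 6 of the 7, the keratin krt4 included, lie in the second numbering pass and 4 are at 0 in all 6 libraries. The sum of 8 yolk syncytial layer markers, mostly from mxtx2, a homeobox regulator of that layer, and apoeb, an apolipoprotein, was 5.06, 2.1 and 4.6 in tetraploid libraries, against 19.8, 2.62 and 3.83 in diploid ones. mxtx2 and grhl3 also belong to the early zygotic list, so they are not separate observations. The part of these cell layers in the early zygotic values was not tested. In whole embryos fewer cells of a type and less RNA per cell cannot be told apart.

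**Figure D4:**
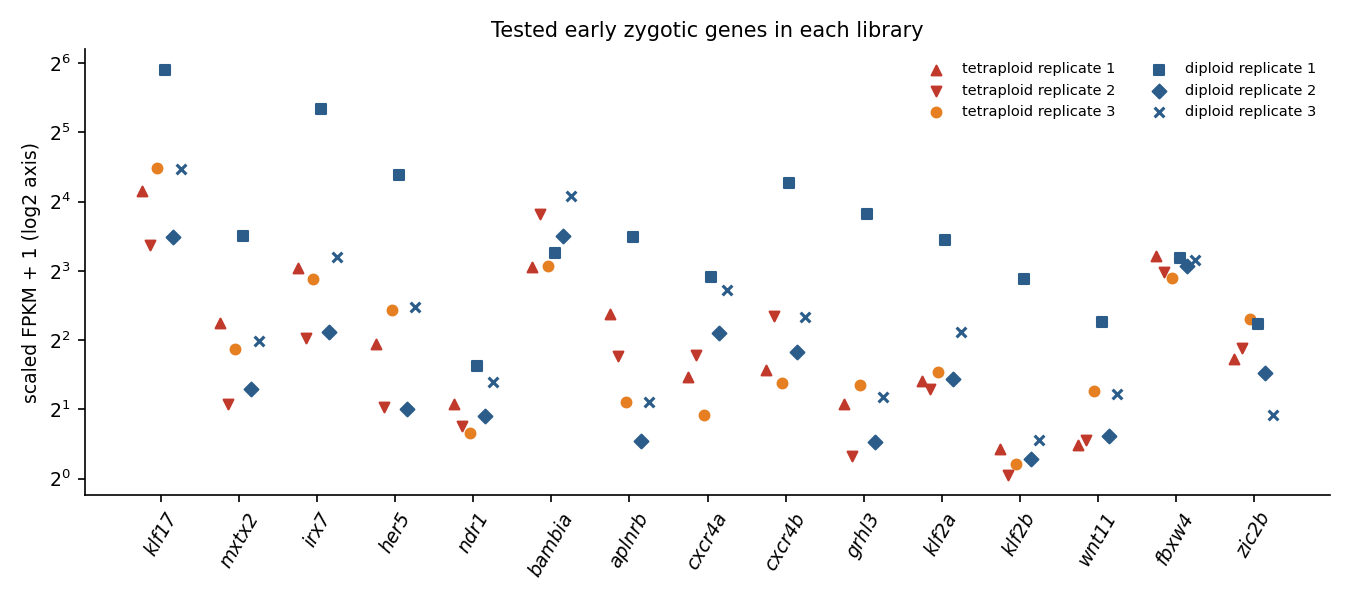
Scaled FPKM + 1 of the 15 tested early zygotic genes in each library, on a log2 axis, with tetraploid libraries left of diploid ones for each gene. Diploid replicate 1 (squares) is far above the other 5 libraries for klf17, irx7, her5, cxcr4b and grhl3, with 59.1 scaled FPKM against 9.4 to 21.5 for klf17.

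The deviation of tetraploid replicate 3 followed position in the genome. Its median deviation from the other 5 libraries ranged over the 25 chromosomes from -0.213 on chromosome 22 to 0.335 on chromosome 16, with 0.319 on chromosome 19 and 0.203 on chromosome 10. For each other library these medians lay between -0.092 and 0.076. When every chromosome was cut into 4 consecutive parts of equal locus number, 37 of 100 parts deviated by more than 0.2 in tetraploid replicate 3, and 0 of 100 did in each other library. Values in that library ran from -0.523 to 0.626, with the highest value in the second part of chromosome 16, with 0.599 in the second part of chromosome 19. On chromosome 16, 53.8% of 273 loci were higher in tetraploid replicate 3 than in all other 5 libraries and 17.6% lower, against 34.9% and 33.2% over all loci. On chromosome 22 these shares were 22.8% and 41.5% of 224 loci. The tetraploid minus diploid median by chromosome ranged from -0.058 to 0.134 with all libraries and from -0.022 to 0.033 without replicate 3. Genes described above lie on these chromosomes too, among them setdb1a, kpnb1, hdac1, tomm40l and hsf1 on chromosome 19, and sphk2 and sybu on chromosome 16. Further ones are ddx4, smad4a and bnip3lb on chromosome 10 and sec13 on chromosome 22. The part of this pattern in their values was not tested.

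**Figure D5:**
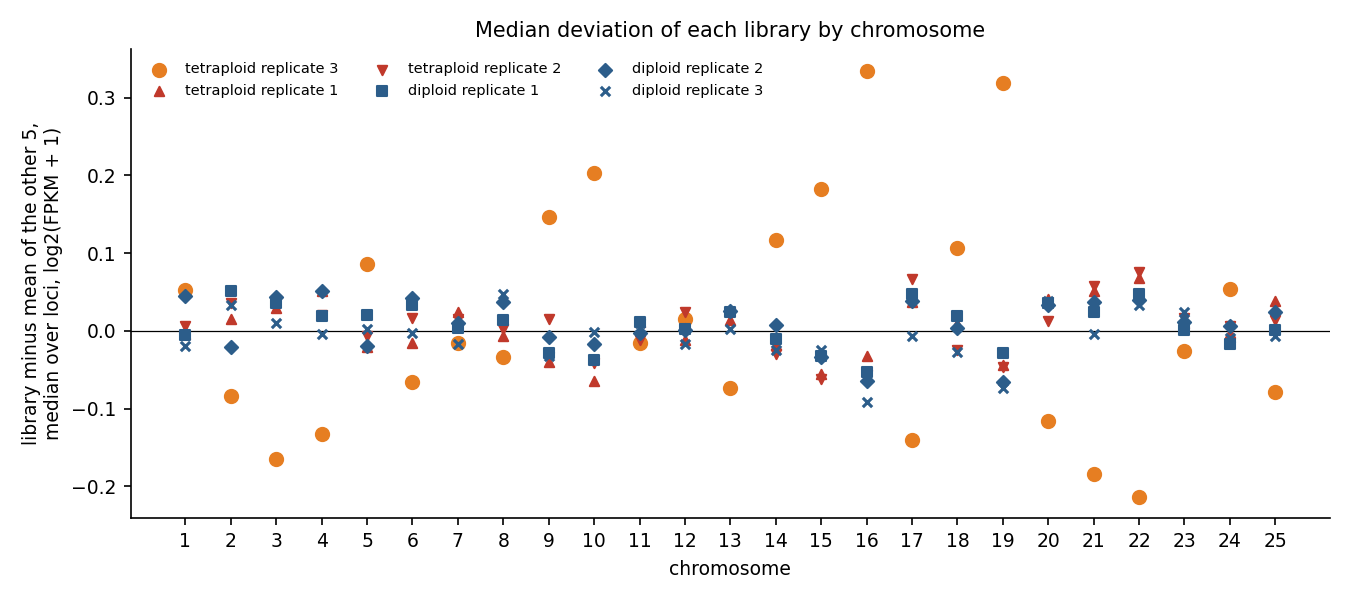
Median deviation of each library from the mean of the other 5, log2(FPKM + 1), over the tested loci of each of the 25 chromosomes. Tetraploid replicate 3 (orange) spans -0.213 to 0.335, while the other 5 libraries stay between -0.092 and 0.076.

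The same library also deviated with the length of the locus. In the fifth of loci with the shortest genomic span, 0.077 to 6.74 kb, its median deviation was -0.14 and 18.47% of loci were more than 2-fold lower. In the fifth with the longest span, 48.6 to 1080 kb, the median was 0.068 and 4.26% were more than 2-fold lower. A span trend was not particular to this library. In the same shortest and longest sets, diploid replicate 2 had the opposite trend, with medians of 0.078 and -0.053. Tetraploid replicate 1 had 0.04 and -0.007, and tetraploid replicate 2 had 0.05 and -0.003. Diploid replicate 1 had -0.001 and 0.019, and diploid replicate 3 had -0.015 and -0.006. The cause of these trends was not tested. The loci with the lowest values in tetraploid replicate 3 relative to the other libraries, at a mean level of at least 10, were lsm8, rps13, fam136a, samm50l and pold2. lsm8, a U6 RNA-binding protein, had 1.16 in this library, against 52.9 and 52.9 in the other tetraploid libraries and 33.9, 59.2 and 43.0 in diploid ones. rps13, a ribosomal protein of the small subunit, had 15.7, against 269 and 236 in the other tetraploid libraries and 239.9, 313 and 222 in diploid ones. Both genes were thus at similar levels in the other 5 libraries, and their differences without this library were 0.25 and -0.02. The highest were dut, hs3st1, pdxka, ergic1 and pop4. dut ranks here only through the diploid libraries listed at 0, and its value of 75.6 was close to 63.6 in tetraploid replicate 2 and 71.2 in diploid replicate 1. pop4, a subunit of RNase P, had 239.7 in this library, against 97.5 and 86.4 in the other tetraploid libraries and 108, 39.4 and 120.2 in diploid ones. The 5 high loci lie on chromosomes 18, 14, 9, 14 and 7, none of them on 16 or 19.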

How the data were processed

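RNA sequencing libraries of whole embryos were analysed from gene tables of FPKM deposited by the authors, 1 per library. The submitters' processing notes name FastQC, Trim Galore, HISAT2, Cufflinks, Cuffdiff and build GRCz10. Their versions, the annotation and the use of strand were not given in the labels or files, so overlapping antisense genes could not be separated. Pooled Cuffdiff FPKM, also deposited by the authors, were used only where named. Total counts are not in the tables, and depth was read from the width of the Cufflinks intervals, taken as counting error (2690000 to 4200000 fragments in the 6 libraries compared). No count test was run.

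FPKM were scaled by median-of-ratios factors over 7331 loci above 0 in all 9 libraries. Loci averaging an FPKM of 1 or more over the 6 libraries were kept, 5834 of the first and 41 of the second numbering pass. A further 5 loci with a failed status were left out. Of those kept, 159 carry several symbols that share the reads, and 892 have placeholder names and were not named. Tests used limma 3.58.1 (R 4.3.3) on log2(FPKM + 1), fitted to the 9 libraries together without pairing, with a trend of variance on mean level and Benjamini-Hochberg adjustment at 0.05. In simulated data of the same size, 53 of 100 loci changed by a log2 of 1 and 92 of 100 changed by 2 were recovered, with 7 false calls. The simulated noise was independent and equally wide in every library at a locus. Tetraploid replicate 3 departs from that setting, so these rates need not hold for the comparison. Settings varied were scaling, pseudocount, filter, library weights, the libraries in the fit, and each library left out. No 2 libraries were identical.

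The members and gene lists were chosen with earlier results of these data known. Named genes were every called locus, the 10 largest positive and negative differences among loci whose groups do not overlap, the next 5 largest of each without tetraploid replicate 3 that were not yet named, the 5 highest and lowest in that library, and in each list the 3 members with the smallest p and the 2 with the highest level, with chek1, nanog and ankdd1a in any case. List members whose groups do not overlap were named after their values were seen. Sequences were not used here.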

Additional observations from a re-analysis of the deposited data

How the results depend on the processing

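The single limma call was unstable. Of 17 alternatives, 9 called 0 loci: FPKM as deposited, a pseudocount of 5, a fit of the 6 compared libraries alone, the replicate block for library sets, a fit of 5 libraries without tetraploid replicate 3, and the fits without tetraploid replicate 1, tetraploid replicate 2, diploid replicate 2 or diploid replicate 3. With no filter 2 loci were called, elovl8a and ankdd1a. Fits without 1 library called 0 to 1 loci, and without diploid replicate 1 the locus was dut, not ankdd1a. That dut call rests on diploid values listed at 0. ankdd1a stayed negative in all 17 alternatives, between -1.57 and -1.0. The library numbers in the titles give sets of 1 tetraploid and 1 diploid library. Same-set deviations over all loci correlated at -0.008, 0.02 and 0.041, and no pairing was assumed. Such a correlation cannot show whether the sets matter for particular genes, and a shared clutch or day was not tested. With the block, ankdd1a had a limma adjusted p of 0.265. Loci whose groups do not overlap numbered 1093 with no filter, and 1098 to 1387 without 1 library, where fewer values have to separate. The difference of pudp, 0.49 with all libraries, ranged from -0.2 without diploid replicate 3 to 1.23 without tetraploid replicate 3. Its levels were 20.2, 16 and 3.05 in tetraploid libraries against 11.5, 12.7 and 2.13 in diploid ones. Replicate 3 was the lowest library of each group, and the cause of these low values was not tested. An analysis of first-pass loci alone, chosen after seeing the data, gave 1 call and 674 non-overlapping loci. Over the alternatives the list median ran from -1.186 to -0.076 for early zygotic genes, -0.524 to -0.057 for mitochondrially encoded genes and -0.414 to 0.015 for ribosomal protein genes. For replication genes it ran from 0.032 to 0.23. Depth is known only from interval widths, so no limit for low genes is given.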
